A study of Mus musculus with 15 samples.

Results

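The mRNAs of 8 inhibitors and feedback regulators of NF-κB, namely Nfkbia, Nfkbib, Nfkbie, Nfkbiz, Bcl3, Nfkbid, Tnfaip3 and Tnip1, were followed in iCLIP data of the RNA-binding protein tristetraprolin (TTP). iCLIP crosslinks a protein to RNA with UV light in intact cells, and the nucleotide just before each cDNA start marks the contact. Of 21951 annotated protein-coding genes these 8 were taken, with every crosslink site on their sense strand, which gave 663 of the 123142 sites listed over all conditions. The cells were immortalised bone marrow-derived macrophages from TTP-deficient C57BL/6 mice, transformed with human c-myc and mutant Ras, so no endogenous TTP was present in any group. They expressed GFP–TTP, or GFP–TTP-AA in which alanine replaces both serines phosphorylated by the kinase MK2, from a doxycycline-inducible retroviral vector that holds only the coding sequence of TTP. All cells received doxycycline for 6 h and were lysed either untreated with LPS (0 h) or once LPS had been present for 1 h or for 4 h. The 15 samples formed 6 groups. At 0 h there were 2 samples per protein, at 1 h 4 of GFP–TTP and 3 of GFP–TTP-AA, and at 4 h again 2 of each.

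NF-κB dimers are held in the cytoplasm by IκB proteins, which are degraded when LPS activates Toll-like receptor signalling. Many inhibitors of the pathway are themselves NF-κB target genes, so their new synthesis closes negative feedback loops that limit the response of macrophages. TTP is an LPS-induced protein that binds AU-rich elements in 3′UTRs, whose core is the pentamer AUUUA, and brings the bound mRNA to the deadenylation machinery. Phosphorylation by MK2 is known to weaken this activity, and the question of the comparison was which mRNAs each form of the protein contacts.

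Below, the wild-type list and the mutant list of a time point are the sites of GFP–TTP and of GFP–TTP-AA. The authors deposited 1 list per group, in which the unique cDNAs of all libraries of the group are summed, so no replicate error exists and every test below compares pooled lists, not conditions. A list held between 19167 and 174397 cDNAs, of which between 906 and 93510 lay in 3′UTRs. The 3′UTR share of the wild-type and mutant lists was 13.0% and 18.4% without LPS, 9.63% and 53.6% at 1 h, and 3.12% and 5.22% at 4 h. Between 10.4% and 32.0% of each list fell on the ribosomal RNA locus of chromosome 17. Only sites past a false-discovery rate of 0.05 are listed, so a gene without a listed site may still have been contacted. RNA abundance was not part of the files used here, so more mRNA and more binding per mRNA cannot be told apart, and no list of a GFP-only control was analysed here. For the same reason macrophage identity could not be checked by marker levels.

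For the 3 genes with most cDNAs, the leading site of each 3′UTR and an example of its AUUUA pentamers are shown first. Coordinates are mm10 and 1-based, distances count from the first nucleotide after the stop codon, and all 3 genes shown lie on the minus strand. Each sequence reads 5′ to 3′ along the mRNA, as in GENCODE release M21, with each complete AUUUA in capitals. The first of each pair is centred on the site with most cDNAs in the mutant list at 1 h, and the second is centred on the AUUUA pentamer, or pair of pentamers, named with it, which does not always hold the most cDNAs.

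Nfkbia, site at nt 464, chr12:55489446-55489470: uuguugguaauuauuuugguacuuc
Nfkbia, pentamer at nt 298, chr12:55489610-55489634: accacguuuuAUUUAuugugcuuuu
Tnfaip3, site at nt 1681, chr10:19001038-19001062: ugugaaaugguuAUUUAuacuuaua
Tnfaip3, pentamers at nt 951 and 973, chr10:19001753-19001781: uAUUUAuuaugaacuuccaaguuAUUUAa
Nfkbiz, site at nt 228, chr16:55812490-55812514: cugggaucuauauaucugaauuuga
Nfkbiz, pentamers at nt 858 and 867, chr16:55811854-55811878: ucuuagAUUUAuguaAUUUAccuaa

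The leading site of Tnfaip3 lay on the first base of a pentamer, whereas the 25-nt windows around the leading sites of Nfkbia and Nfkbiz held none. The pentamer of Nfkbia at nt 298 is flanked by UU on both sides, as is 1 of the 5 pentamers of Tnfaip3.

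Summed over the 8 mRNAs, the contacts at 1 h lay almost wholly in 3′UTRs. In the mutant list at 1 h, 1719 of 1729 member cDNAs were in 3′UTRs, 99.4% (Wilson 95% interval 98.9 to 99.7), against 85.6% of the cDNAs of all protein-coding genes. In the wild-type list at 1 h the count was 126 of 132, 95.5% (90.4 to 97.9), against 37.4% over all protein-coding genes. No list held a coding sequence site in any of the 8 genes. The remaining cDNAs were few: Tnip1 had intronic sites with 4 cDNAs in the wild-type list and 8 in the mutant list at 1 h and 3 in the mutant list at 4 h, Nfkbiz had 2 intronic cDNAs in the wild-type list at 0 h and 2 in the mutant list at 1 h, and Nfkbie had 2 in its 5′UTR in the wild-type list at 1 h. The sum does not describe every member. Tnip1 had more intronic than 3′UTR cDNAs, 8 against 6 in the mutant list at 1 h, and Nfkbie had cDNAs only in its 5′UTR. All intervals in the text cover counting error only, and sites of 1 mRNA are not independent of each other.

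The signal came from Nfkbia, Tnfaip3 and Nfkbiz. Together they held all 126 member 3′UTR cDNAs of the wild-type list at 1 h and 1701 of 1719 (99.0%) in the mutant list. The 8 genes made up 1.32% (1.11 to 1.57) of all 3′UTR cDNAs in the wild-type list and 1.84% (1.75 to 1.93) in the mutant list at 1 h. At 0 h these shares were 0.435% (0.279 to 0.678) and 0.0832% (0.0356 to 0.195). At 4 h neither list held a 3′UTR site in any of the 8 genes.

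**Figure D1:**
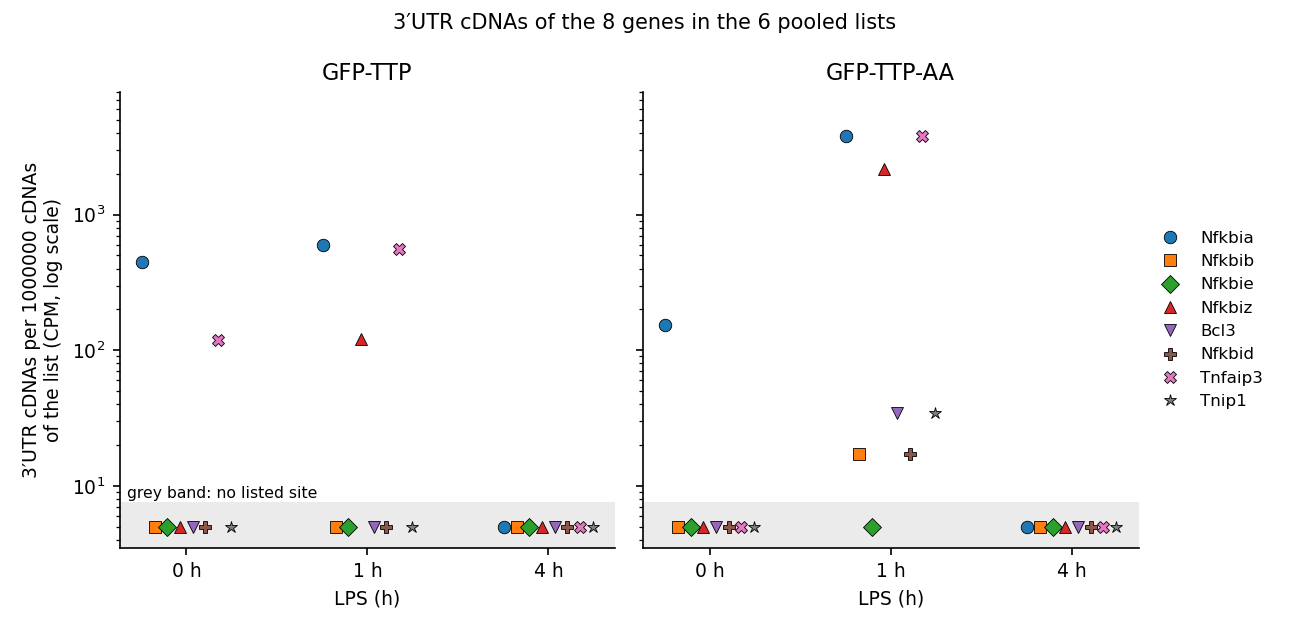
3′UTR cDNAs of each of the 8 genes per 1000000 cDNAs of the list (CPM, log scale) after 0, 1 and 4 h of LPS, for GFP–TTP on the left and GFP–TTP-AA on the right, 1 point per gene and pooled list, with genes without a listed site in the grey band. Nfkbia, Tnfaip3 and Nfkbiz stand at 3796, 3807 and 2150 CPM in the mutant list at 1 h, and all 8 genes are in the grey band at 4 h.

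Among the classical cytoplasmic IκB proteins, only Nfkbia, which encodes IκBα, the form that is resynthesised most rapidly after NF-κB activation, was contacted at more than a few positions. Its 3′UTR of 512 nt (chr12:55489410-55489921, ENSMUSG00000021025.8) held 15 cDNAs in the wild-type list and 5 in the mutant list at 0 h, 59 and 662 at 1 h, and none at 4 h. The mutant list at 1 h was therefore far above the others, and Nfkbia was, with Tnfaip3, 1 of 2 members with a 3′UTR site at 0 h. Per length, its level of 7414 CPM per kb (CPM, cDNAs per 1000000 cDNAs of the list) ranked 11 of 1972 genes with at least 10 cDNAs in the mutant list at 1 h, and its 1161 ranked 15 of 156 in the wild-type list. A site of Nfkbia carried 5.21 cDNAs on average in the mutant list, compared with 2.60 for Tnfaip3 and 1.62 for Nfkbiz.

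Nfkbib, encoding IκBβ, had 3 sites of 1 cDNA each in the mutant list at 1 h, all on a 3′UTR other than its longest one, and no 3′UTR site in the other lists. Nfkbie, encoding IκBε, had no 3′UTR site in any list. Neither of their longest 3′UTRs, of 763 nt (chr7:28758251-28759102, including an intron) and 1102 nt (chr17:45562068-45563169), contains an AUUUA. Over all 21028 protein-coding genes with a 3′UTR, 65.2% of the longest 3′UTRs contain at least 1.

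The atypical IκB proteins Nfkbiz, Bcl3 and Nfkbid act in the nucleus, where they modulate transcription by NF-κB. Of these only Nfkbiz, encoding IκBζ, an early LPS-induced coactivator of secondary response genes, was contacted broadly. Its 3′UTR of 1355 nt (chr16:55811375-55812729, ENSMUSG00000035356.17) held no site in either list at 0 h, 12 cDNAs in the wild-type list and 375 in the mutant list at 1 h, and none at 4 h. Those 375 cDNAs were spread over 231 sites, 153 of them with a single cDNA, and covered 17.0% of the positions of the 3′UTR. Bcl3 had 6 sites of 1 cDNA and Nfkbid 2 sites with 3 cDNAs, all in the mutant list at 1 h. The Bcl3 3′UTR of 410 nt (chr7:19808462-19808871) holds no AUUUA, and the Nfkbid 3′UTR of 559 nt (chr7:30428188-30428746) holds 1, which had no site within 20 nt.

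A20, encoded by Tnfaip3, removes and edits ubiquitin chains on signalling proteins upstream of the IκB kinase, and ABIN-1, encoded by Tnip1, is a ubiquitin-binding partner of A20. The Tnfaip3 3′UTR of 1821 nt (chr10:19000910-19002730, ENSMUSG00000019850.11) held 4 cDNAs in the wild-type list and none in the mutant list at 0 h, 55 and 664 at 1 h, and none at 4 h. Counted per gene, Tnfaip3 ranked 9 and Nfkbia 10 among 4468 genes with a 3′UTR site in the mutant list at 1 h, with Nfkbiz at 23. In the wild-type list they ranked 20, 19 and 108 of 1295. Tnip1 had 6 cDNAs at 4 sites in the mutant list at 1 h and no other 3′UTR site, and its 3′UTR of 752 nt (chr11:54910785-54911536) holds no AUUUA. Per length, the Tnfaip3 level in that list was 2091 CPM per kb and that of Tnip1 was 45.8.

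TTP-AA was compared with TTP at 1 h by asking for each gene whether its part of all 3′UTR cDNAs differed between the lists, with a two-sided Fisher exact test across all genes with at least 10 cDNAs and Benjamini-Hochberg adjustment. Nfkbiz took 0.126% of the 3′UTR cDNAs of the wild-type list and 0.401% of the mutant list, an odds ratio of 3.20 (adjusted p = 1.57e-04, Fisher exact test), and was higher in TTP-AA. The count ratio of Nfkbiz was 31.2 (17.7 to 61.0), while all 3′UTR cDNAs differed by 9.78-fold between the lists. Most single genes lay above 9.78-fold, as 1420 of the 2065 tested had an odds ratio above 1 and 645 below. Their median log2 count ratio was 4.52, with 0.5 added to each count. Nfkbia had 0.617% and 0.708%, an odds ratio of 1.15 (adjusted p = 0.668, Fisher exact test), and a count ratio of 11.2 (8.59 to 14.9). Tnfaip3 had 0.575% and 0.710%, an odds ratio of 1.24 (adjusted p = 0.458, Fisher exact test), and a count ratio of 12.1 (9.16 to 16.2). The share of Nfkbiz was thus 3.19 times that in the wild-type list, and those of Nfkbia and Tnfaip3 were 1.15 and 1.23 times. Of the 3 members tested 1 was higher, and among all 2065 genes tested 1.99% were. The other 5 had too few cDNAs to be tested.

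These calls depended on what the cDNAs were set against. As a part of all cDNAs of the list, Nfkbia, Tnfaip3 and Nfkbiz were all higher in TTP-AA, 6.39-fold, 6.87-fold and 17.8-fold (adjusted p = 2.96e-66, 3.69e-69 and 1.01e-54, Fisher exact tests), but on that scale 84.9% of all tested genes were higher. With only sites of at least 2 cDNAs, also within 3′UTRs, Nfkbia and Tnfaip3 were called higher as well, with odds ratios of 1.93 and 2.00 (adjusted p = 0.00506 and 0.00647, Fisher exact tests). There 30 of all 794 genes tested were higher. With the sense cDNAs of all regions the odds ratios were 2.64 and 2.84 (adjusted p = 3.48e-14 and 8.65e-16, Fisher exact tests). Such a call was common on that count, where 509 of all 2542 genes tested were higher. With sites instead of cDNAs as the count, Nfkbia was lower in TTP-AA, with 127 sites against 43 with TTP and an odds ratio of 0.326 (adjusted p = 9.18e-07, Fisher exact test), where 4.72% of 1884 genes were lower. In the mutant list the 127 sites of Nfkbia occupied 24.8% of its 3′UTR, compared with 14.0% for the 255 sites of Tnfaip3.

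**Figure D2:**
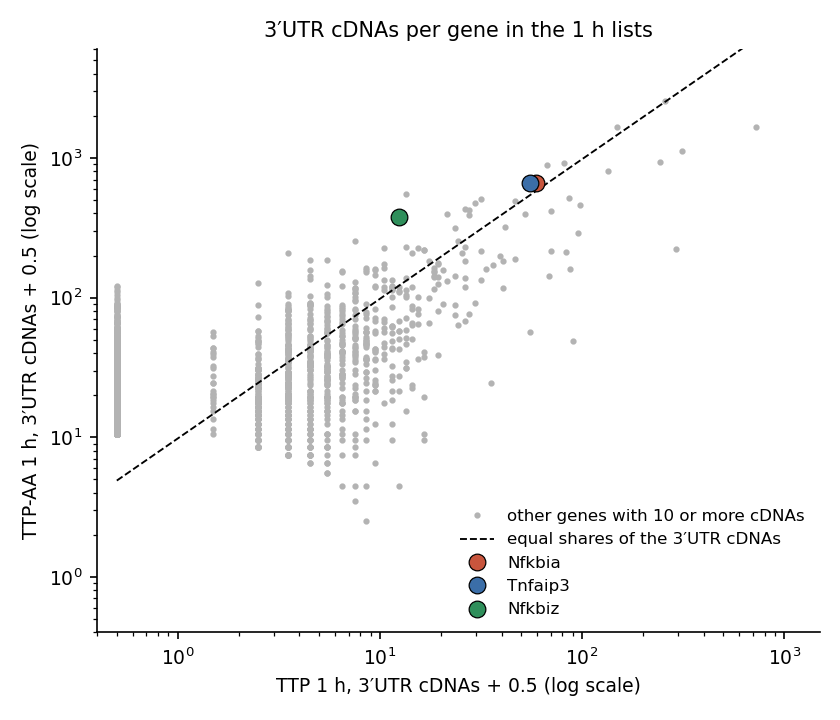
3′UTR cDNAs plus 0.5 of each gene with at least 10 cDNAs in the lists at 1 h (both axes log scale), TTP on the x axis and TTP-AA on the y axis, 1 point per gene, with the dashed line where a gene takes the same part of both lists. Nfkbia (59 and 662) and Tnfaip3 (55 and 664) lie near the line, and Nfkbiz (12 and 375) lies above it, as do most genes tested.

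Without LPS, only Nfkbia could be tested between the proteins. It had 0.343% and 0.0832% of the 3′UTR cDNAs of the wild-type and mutant lists, 15 against 5 cDNAs, with an odds ratio of 0.242 (adjusted p = 0.0219, Fisher exact test), and was lower in TTP-AA. Among all 241 genes tested at 0 h, 13.3% were lower. Nfkbia reached the minimum of 10 cDNAs only through the wild-type list, where it was higher. The call was lost against all cDNAs of the list (adjusted p = 0.112, Fisher exact test) and with sites as the count (adjusted p = 0.460, Fisher exact test). It was also lost without the chromosome 17 locus, with a minimum of 1 cDNA and with all sense cDNAs (adjusted p = 0.0757, 0.0753 and 0.0515, Fisher exact tests). With sites of at least 2 cDNAs it could not be tested. It held with a minimum of 5 cDNAs and with coding sequence assigned before 3′UTR. Tnfaip3 had 4 cDNAs in the wild-type list and no listed site in the mutant list, too few for a test.

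From 0 h to 1 h of LPS, the 3 genes took a larger part of the 3′UTR cDNAs bound by TTP-AA. In TTP-AA cells Nfkbia rose from 0.0832% to 0.708% (odds ratio 8.56, adjusted p = 2.02e-10, Fisher exact test), Tnfaip3 from no listed site to 0.710% (adjusted p = 2.34e-16) and Nfkbiz from no listed site to 0.401% (adjusted p = 8.04e-09). All 3 members tested were higher, and 2.73% of all 2052 genes tested were. Each of the 3 reached the minimum of 10 cDNAs only through the list at 1 h, so being tested already depended on a high count there. With sites as the count, the call of Nfkbia was lost (adjusted p = 0.605, Fisher exact test).

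In TTP cells Tnfaip3 rose from 0.0916% to 0.575%, 4 against 55 cDNAs (odds ratio 6.32, adjusted p = 7.23e-05, Fisher exact test). Nfkbiz rose from no listed site to 12 cDNAs, 0.126% (adjusted p = 0.0496, Fisher exact test), a call that held in 1 of 8 alternatives, with coding sequence assigned before 3′UTR. In 5 it was lost, with adjusted p from 0.0563 to 0.481 (Fisher exact tests), and in the 2 based on sites Nfkbiz had too few counts to be tested. Nfkbia had 0.343% at 0 h and 0.617% at 1 h (odds ratio 1.80, adjusted p = 0.0795, Fisher exact test). Of the 3 tested members 2 were higher, and 23.9% of all 276 genes tested were. Those 2, Tnfaip3 and Nfkbiz, reached the minimum of 10 cDNAs only through the list at 1 h.

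From 1 h to 4 h no member kept a listed 3′UTR site. The 3′UTR cDNAs of the whole list at 4 h numbered 906 (wild type) and 1000 (mutant), so few cDNAs were available for any gene. In TTP cells Nfkbia fell from 59 cDNAs to no listed site (adjusted p = 0.0440, Fisher exact test), Tnfaip3 had 55 and none (adjusted p = 0.0636) and Nfkbiz 12 and none (adjusted p = 0.682). This was 1 of 3 tested members lower, with 5.88% of all 170 genes tested lower, and the call of Nfkbia was lost with sites as the count (adjusted p = 0.236, Fisher exact test). In TTP-AA cells none of the 3 was called, with adjusted p = 0.0523 for Nfkbia, 0.0523 for Tnfaip3 and 0.631 for Nfkbiz (Fisher exact tests), and all 3 had an unadjusted p under 0.05. Among all 1980 genes tested in TTP-AA cells 0.101% were lower. As a part of all cDNAs of the list, all 3 were lower at 4 h than at 1 h (adjusted p = 8.93e-28 for Nfkbia and for Tnfaip3 and 2.51e-15 for Nfkbiz, Fisher exact tests), where 13.7% of all genes tested were. With either protein, the 3 members reached the minimum of 10 cDNAs only through the list at 1 h, where they had sites. No member could be tested between the proteins at 4 h.

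Along the 3′UTR of Nfkbia the cDNAs fell into separate stretches, divided where neighbouring sites at 1 h lay more than 40 nt apart. The last one, nt 403 to 490 (chr12:55489432-55489519), held 462 of the 662 TTP-AA cDNAs (69.8%) and 29 of the 59 TTP cDNAs (49.2%) at 1 h in 17.2% of the length. It also held all 15 TTP and all 5 TTP-AA cDNAs at 0 h. The sites present without LPS thus lay in the stretch that held more cDNAs than any other stretch in each list at 1 h. A middle stretch, nt 234 to 344 (chr12:55489578-55489688), held 200 TTP-AA cDNAs (30.2%) and 24 TTP cDNAs (40.7%) at 1 h and none at 0 h. Near the stop codon, nt 53 to 60 held 6 cDNAs of the wild-type list at 4 sites and none of the mutant list.

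Within these stretches the site with most TTP-AA cDNAs was nt 464, with 31 cDNAs at 1 h, 2 in the wild-type list at 1 h and 1 in the wild-type list at 0 h. It lies 48 nt before the end of the 3′UTR and 25 nt from the centre of the nearest pentamer, the one at nt 487. The site at nt 298, the first base of the other pentamer, had 27 TTP-AA cDNAs and 1 TTP cDNA. The windows reaching 20 nt to either side of the pentamers at nt 298 and 487 were 45 nt long. They held 134 and 147 TTP-AA cDNAs and 16 and 13 TTP cDNAs. The last base of the pentamer at nt 487 is the first base of the polyadenylation hexamer AUUAAA at nt 491, which ends 16 nt before the annotated 3′UTR does.

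The Tnfaip3 cDNAs lay in the second part of the 3′UTR. No site was found before nt 761 in the mutant list or before nt 789 in the wild-type list at 1 h. The stretch from nt 761 to 1026 (chr10:19001705-19001970) held 306 TTP-AA cDNAs (46.1%) and 31 TTP cDNAs (56.4%), and the stretch from nt 1544 to 1797 (chr10:19000934-19001187) held 349 (52.6%) and 24 (43.6%). Of the 4 TTP cDNAs at 0 h, 3 were in the former and 1 in the latter. The window reaching 20 nt to either side of the pentamers at nt 951 and 973 held 172 TTP-AA and 21 TTP cDNAs. These were 25.9% and 38.2% of the gene in 3.68% of the length. Around the pentamer at nt 1681 the counts were 130 and 15, 19.6% and 27.3% in 2.47% of the length. Around the pentamer at nt 800 there were 66 and 6, and around the last one, at nt 1809, 11 and none.

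The cDNAs of Nfkbiz were spread over most of the 3′UTR, from nt 44 to 1328 in the mutant list. The densest 50 nt, nt 195 to 244, held 73 of 375 cDNAs, 19.5% (15.8 to 23.8), compared with 25.3% (22.1 to 28.7) for the densest 50 nt of Tnfaip3 and 63.9% (60.2 to 67.5) for those of Nfkbia. Because the 3′UTRs differ in length, 50 nt make up 3.69% of that of Nfkbiz, 2.75% of that of Tnfaip3 and 9.77% of that of Nfkbia. Stretches from nt 44 to 294 (chr16:55812436-55812686) and from nt 815 to 1272 (chr16:55811458-55811915) held 149 and 203 TTP-AA cDNAs, and 6 and 6 of the wild-type list. The window around its paired pentamers at nt 858 and 867 held 20 TTP-AA cDNAs, 5.33%, and none of the wild-type list. The pentamer at nt 1086 had 22 and none in its window, and the one at nt 122 had 11 and 2. Its leading site, nt 228 with 7 TTP-AA cDNAs and 1 TTP cDNA, lay 104 nt from the nearest pentamer, in a window with alternating U and A.

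**Figure D3:**
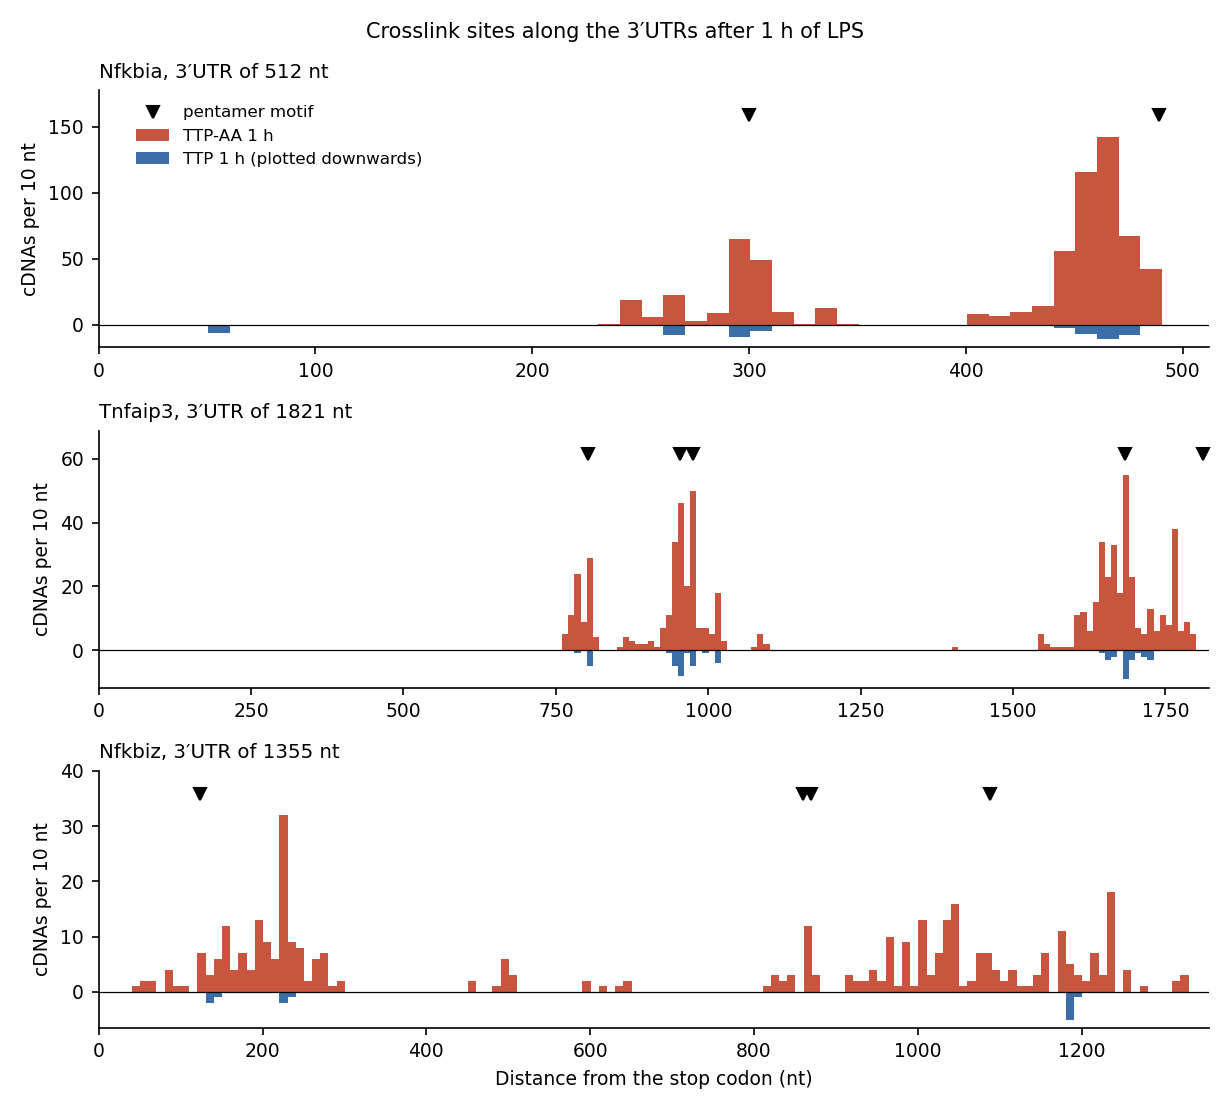
cDNAs per 10 nt (y axis) against the distance from the stop codon in nt (x axis) in the 3′UTRs of Nfkbia, Tnfaip3 and Nfkbiz after 1 h of LPS, with TTP-AA upwards, TTP downwards and triangles at the AUUUA pentamers. The cDNAs of Nfkbia concentrate between nt 403 and 490, and those of Nfkbiz are spread from nt 44 to 1328. Those of Tnfaip3 lie mainly between nt 761 and 1026 and between nt 1544 and 1797.

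Proximity to the pentamer, searched on the mRNA strand, differed among the 3 genes. Of the Tnfaip3 sites in the wild-type list, 27 of 40 (67.5%, 52.0 to 79.9) had an AUUUA wholly within 20 nt, compared with 8.90% of the positions of its 3′UTR. In the mutant list it was 103 of 255 (40.4%, 34.6 to 46.5), an interval that did not overlap with that of the wild-type list. These intervals treat neighbouring sites of the same mRNA in pooled lists as independent, which they are not. The lists also differ in depth, with 55 Tnfaip3 cDNAs in the wild-type list and 664 in the mutant list. Whether the proteins differ in this share was therefore not tested. With sites of at least 2 cDNAs the Tnfaip3 intervals did overlap, at 77.8% (45.3 to 93.7) and 51.1% (42.9 to 59.2). In the other alternatives they did not. For Nfkbia the shares were 44.2% (30.4 to 58.9) and 36.2% (28.4 to 44.9), against 14.5% of positions. For Nfkbiz they were 22.2% (6.32 to 54.7) and 16.5% (12.2 to 21.8), against 8.86% of positions. With sites of at least 2 cDNAs the Nfkbiz share in the mutant list was 8.97% (4.42 to 17.4), no higher than that of positions within its interval. In the other alternatives it stayed above that of positions. Over all genes, 37.9% of TTP and 34.7% of TTP-AA 3′UTR sites had a pentamer within 20 nt, so the interval of the Nfkbiz TTP-AA sites lay below that share and that of the Tnfaip3 TTP-AA sites just included it. Weighted by cDNAs, the Tnfaip3 shares were 72.7% (59.8 to 82.7) and 53.5% (49.7 to 57.2), both above the 43.4% and 40.7% of all genes. Within 10 nt the TTP-AA share of Tnfaip3 was 22.0% (17.3 to 27.4), with 23.4% over all genes. For UAUUUA or AUUUAU it was 32.2% (26.7 to 38.1), with 30.3% over all genes. Within 50 nt it was higher, 74.9% (69.2 to 79.8) against 51.3%.

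**Figure D4:**
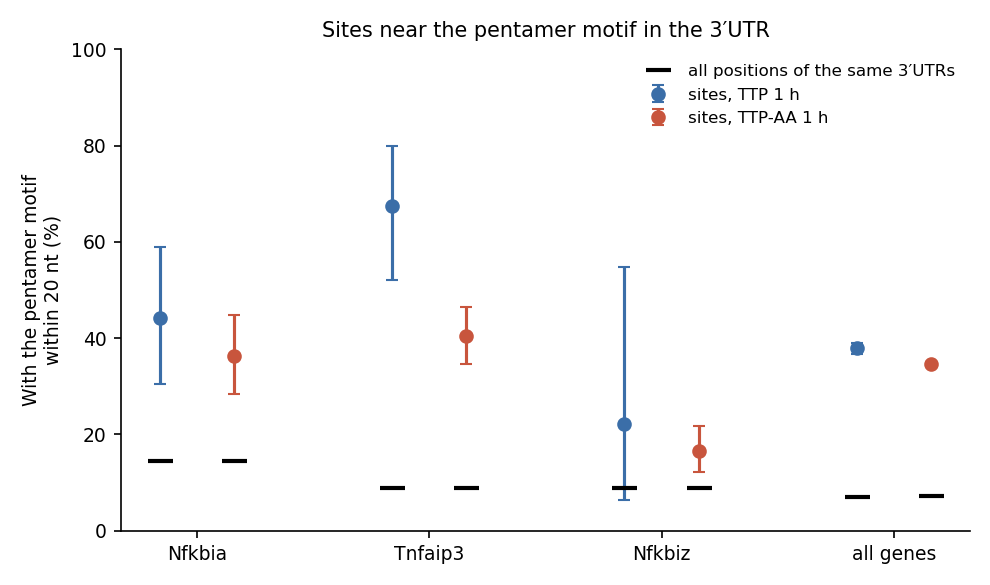
Percentage of 3′UTR sites with an AUUUA pentamer within 20 nt (points, bars are Wilson 95% intervals) in the wild-type and mutant lists at 1 h for Nfkbia, Tnfaip3, Nfkbiz and all genes, with black marks for all positions of the same 3′UTRs. Tnfaip3 stands highest with 67.5% and 40.4%, Nfkbiz lowest with 22.2% and 16.5%.

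The base at the crosslink site was U for 57.6% of the 92 member sites in the wild-type list and 55.2% of 625 in the mutant list at 1 h, against 31.4% and 29.2% U in the 3′UTRs that carry them. Over all genes U made up 63.8% and 61.6% of the sites. Nfkbia had more sites on G than Tnfaip3 and Nfkbiz, 19.7% against 6.67% and 9.09% in the mutant list, where all genes had 7.50%.

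TTP and TTP-AA contacted the 3 mRNAs at shared positions. Of the 92 TTP sites at 1 h, 88 (95.7%, 89.3 to 98.3) had a TTP-AA site of the same 3′UTR within 15 nt, and 77 (83.7%) were at the same nucleotide. Conversely, 320 of 625 TTP-AA sites (51.2%, 47.3 to 55.1) had a TTP site within 15 nt. The 625 include the few sites of Bcl3, Nfkbid and Tnip1, which had no TTP site in the 3′UTR and so could have no neighbour. Among all genes the shares were 76.8% of TTP sites and 21.7% of TTP-AA sites. All 40 TTP sites of Tnfaip3, all 9 of Nfkbiz and 39 of 43 of Nfkbia had a TTP-AA neighbour, and the 4 exceptions were the Nfkbia sites at nt 53 to 60. In the other direction the share was 82.7% for Nfkbia, 64.7% for Tnfaip3 and 21.6% for Nfkbiz. The TTP-AA sites are dense in these 3′UTRs, of which 51.1% of all positions lay within 15 nt of one, compared with 7.69% over all genes with a TTP site, so the members' higher overlap cannot be told apart from this density.

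Other genes of the NF-κB pathway, 44 in 7 roles, were chosen together with the members. Each had fewer 3′UTR cDNAs at 1 h than Nfkbia, Tnfaip3 or Nfkbiz in either list. This did not hold against the remaining members, which had 6 or fewer each in the mutant list. The 3′UTRs of the pathway genes held 15 cDNAs of 6 genes in the wild-type list at 1 h. In the mutant list they held 349 cDNAs of 24 genes, together less than Nfkbiz alone. Of the 13 that could be tested between TTP-AA and TTP at 1 h none was called, where 6.39% of all tested genes were called in either direction, and 1 had an unadjusted p under 0.05. None of 13 was called in TTP-AA cells from 0 h to 1 h (12.4% of all genes, 0 with an unadjusted p under 0.05) or from 1 h to 4 h (3.13% of all genes, 2 with an unadjusted p under 0.05). The NF-κB subunits had 86 TTP-AA cDNAs at 1 h, of which Rel, encoding c-Rel, had 44 and Nfkb1, encoding p105 and p50, had 25 with 3 in the wild-type list. Among the ubiquitin ligases, Birc3, encoding cIAP2, had 39 TTP-AA and 3 TTP cDNAs and Traf3 had 26 and 2. The partners of A20 and other deubiquitinases were represented by Tax1bp1 with 28 and Itch with 24 TTP-AA cDNAs and none in the wild-type list. The kinases of the IκB kinase family were represented by Tbk1 with 16 and Chuk with 11, the activating kinases and adaptors by Map3k7 with 18 and Tab2 with 14, and the other negative regulators by Tank with 25 and N4bp1 with 18. The linear ubiquitin assembly genes Rnf31, Rbck1 and Sharpin had no 3′UTR site in any list. At 4 h the pathway genes kept 7 TTP-AA cDNAs, 3 each of Rel and Traf3 and 1 of Nfkb1, and none in the wild-type list.

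The genes whose counts over the 6 lists were most like those of each member were found by the Euclidean distance of log2(CPM + 10) among 459 genes with at least 50 cDNAs. Nearest to Nfkbia were Lpl at 1.60, Ywhag at 2.07 and Plau at 2.07, where the median gene was at 7.31. Lpl, encoding lipoprotein lipase, had 12 wild-type and 14 mutant cDNAs without LPS and 86 and 516 after 1 h. Nearest to Tnfaip3 were the AP-1 subunit gene Junb at 1.67, the macrophage lysozyme gene Lyz2 at 2.41 and Mbnl1 at 2.45 (median 6.93), with Junb at 3 wild-type cDNAs without LPS and at 23 wild-type and 316 mutant cDNAs after 1 h. Nearest to Nfkbiz were Msn at 0.857, Cflar, encoding the caspase-8 inhibitor c-FLIP, at 0.863 and Klf6 at 0.904 (median 6.07), none of which had a listed 3′UTR site at 0 h or 4 h. Cflar had 14 cDNAs with TTP, compared with 209 with TTP-AA, after 1 h.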

How the data were processed

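The iCLIP libraries of 15 samples were deposited as 6 pooled lists. The deposited value of a site is a score, which the file headers and the numbers show to be a whole count of unique cDNAs, with the sign as the strand, summed by the authors over the libraries of a group. The authors removed PCR duplicates by random barcodes, mapped unique reads to mm10 (Ensembl 75) with Bowtie, took the base before each read, and kept sites with a false-discovery rate under 0.05 in iCount (100 permutations, 15 nt neighbourhood). The headers of the 1 h lists carried a mark for treating regions as a unit that the others lacked.

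Here, each site was assigned with Python 3.11.15, numpy 2.4.6 and pandas 2.3.3 to the first sense-strand match in the order 3′UTR, coding sequence, 5′UTR, non-coding exon and intron in GENCODE M21, which is later than the annotation of the authors. Positions and motifs refer to the longest 3′UTR of a gene. Genes with at least 10 cDNAs over both lists were tested with the two-sided Fisher exact test (scipy 1.17.1) against all other 3′UTR cDNAs, with a Benjamini-Hochberg threshold of 0.05, in 7 comparisons of which 1 (TTP-AA versus TTP at 4 h) held no tested member. The test was tried on simulated counts with known changes. These counts held no variation between libraries and kept the shares of unchanged genes equal, so the trial does not cover either feature of the real lists. Shares have Wilson 95% intervals and count ratios exact ones. No ratio was computed against 3 or fewer cDNAs. Plots were drawn with matplotlib 3.10.9. Each test had 8 alternatives.

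The members, the pathway list of 44 genes and all rules were chosen with earlier results of these data known. Named are all 8 members, every pathway gene past the threshold together with the 2 per role with most 3′UTR cDNAs at 1 h, and the 3 genes nearest in profile to each member with at least 100 cDNAs. The linear ubiquitin assembly genes were named beyond this rule, after their counts were seen, as were the pathway genes listed at 4 h.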

Additional observations from a re-analysis of the deposited data

How the results depend on the processing

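Of the 8 alternatives per test, assigning coding sequence before 3′UTR changed no call of a member in the 7 comparisons. Against all cDNAs of the list, with or without the chromosome 17 locus, the members called were 3 instead of 1 for TTP-AA versus TTP at 1 h, 0 instead of 1 at 0 h, 1 instead of 2 for TTP from 0 h to 1 h, 2 instead of 1 for TTP from 1 h to 4 h and 3 instead of 0 for TTP-AA from 1 h to 4 h. Counting all sense cDNAs in any region gave 3, 0, 1, 2 and 3 in the same order. With sites as the count the first 4 were 2, 0, 1 and 0, and at 1 h the odds ratios reversed to 0.326 for Nfkbia and 0.705 for Tnfaip3 (adjusted p = 0.290, Fisher exact test), that is, differences in share of -0.427 and -0.174 percentage points. With sites of at least 2 cDNAs they were 3, 0, 1 and 0, with odds ratios at 1 h of 1.93 for Nfkbia and 2.00 for Tnfaip3. With a minimum of 5 cDNAs, TTP from 0 h to 1 h had 1 and TTP from 1 h to 4 h had 0, and with a minimum of 1 these were 1 and 0 and TTP-AA versus TTP at 0 h had 0. TTP-AA from 0 h to 1 h kept 3 members called in every alternative except sites as the count, with 2. The causes were not tested.

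Over all genes, the calls for TTP-AA versus TTP at 1 h were 41 higher and 91 lower, against 1754 and 9 relative to the whole list, 1632 and 12 without the locus, 17 and 89 by sites, 30 and 34 with at least 2 cDNAs and 509 and 220 in any region. Relative to the whole list the splits were 59 and 19 instead of 42 and 32 at 0 h, 10 and 4 instead of 9 and 8 at 4 h, 32 and 93 instead of 66 and 65 for TTP from 0 h to 1 h, 466 and 37 instead of 56 and 199 for TTP-AA from 0 h to 1 h, 4 and 47 instead of 24 and 10 for TTP from 1 h to 4 h, and 5 and 271 instead of 60 and 2 for TTP-AA from 1 h to 4 h. Other alternatives gave between 31 and 156 calls instead of 74 at 0 h, 7 and 78 instead of 17 at 4 h, 47 and 239 instead of 131 for TTP from 0 h to 1 h, 90 and 488 instead of 255 for TTP-AA from 0 h to 1 h, 14 and 119 instead of 34 for TTP from 1 h to 4 h, and 19 and 261 instead of 62 for TTP-AA from 1 h to 4 h. The 3′UTR share of member cDNAs was 100% in the wild-type list and 99.9% in the mutant list at 1 h with sites of at least 2 cDNAs, and 98.6% in the mutant list by sites. The share of member sites near AUUUA in the wild-type and mutant lists was 52.2% and 29.9% within 20 nt, 33.7% and 16.5% within 10 nt and 89.1% and 58.6% within 50 nt. In the mutant list it was 37.6% weighted by cDNAs, 36.7% with sites of at least 2 cDNAs and 25.0% for UAUUUA or AUUUAU. The overlap moved by more than its interval only by requiring the same nucleotide, 83.7%.

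No paired analysis was possible because the lists hold sums over the replicates of a group, and for the same reason leaving out a replicate could not be run. The lists at 4 h held too few 3′UTR cDNAs for a missing member to be read as absence of binding, and the headers of the lists at 1 h carry a region mark that the others lack, so whether peaks were called alike at all times is not known.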
